A study of Mus musculus with 6 samples.

Results

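The genes described here are 32 integrin and leukocyte adhesion genes, taken as the gene columns of those names among 20882 in the count tables: 15 integrin alpha chains, 6 integrin beta chains, the integrin ligands Icam1, Icam2 and Vcam1, the adhesion molecules Selplg, Pecam1, Cd44 and Cd47, and the activation genes Fermt3, Tln1, Rap1a and Rap1b. All 32 were present, and 27 of them held at least 200 counts over both libraries, as did 12111 of all gene columns. The other 5, Itga3, Itga7, Itga9, Itgad and Itgb8, held 34 to 166 counts and are described by their levels only.

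The samples are viable lung leukocytes, sorted as CD45+, of 6 to 8 week old mice of a humanized PD-1 model that were given either an isotype or a PD-1 agonist antibody. PD-1 is an inhibitory receptor of activated lymphocytes, and both groups carried the humanized receptor. Cells were profiled with droplet single-cell RNA sequencing (10x Genomics Chromium) after 3 samples of each treatment had been mixed with hashing antibodies, and each treatment has 3 tables. The tables hold 6393 to 6749 cell records and 22202875 to 30608477 counts each.

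The 3 tables of a treatment were not separate samples. Any pair of tables from the same treatment shared 2373 to 2736 barcodes, which was 35.9% to 42.5% of the smaller table, whereas tables of different treatments shared 3 to 13. Each barcode was therefore used once per treatment, giving 10299 isotype and 11272 agonist cells after filtering, and each treatment is 1 library with no replicate. No test between treatments was possible, and every interval below is a 95% interval that covers counting error only. Depth per cell was lower in the agonist library, at a median of 2228 counts against 2535. Ptprc, which encodes CD45, was counted in 90.9% of isotype and 90.7% of agonist cells, and in 65.0% to 100% of the cells of a class. Summed over all cells, the markers of endothelial, epithelial and fibroblast cells reached 27.6, 7.07 and 5.23 CPM (counts scaled to the size of the library) in the isotype library and 25.8, 8.26 and 5.34 CPM in the agonist library.

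Integrins are cell surface receptors made of 1 alpha and 1 beta chain, and most leukocyte integrins rest in a bent form that binds ligand poorly. Signals through the small GTPases Rap1a and Rap1b recruit talin (Tln1) and kindlin-3 (Fermt3) to the beta chain tail, and the receptor then extends and binds. In the lung, beta-2 integrins serve the arrest and crossing of neutrophils and monocytes at the vessel wall, while integrins that bind matrix, E-cadherin or latent TGF-beta are linked to the retention and function of tissue lymphocytes and macrophages.

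Cells were grouped by clustering without the 32 genes, and the clusters were named from marker lists that hold none of them, so that the levels below did not enter the grouping. This gave 24 classes with at least 50 cells, each called "-like" because its name rests on transcripts alone, plus unnamed clusters with 3.18% of isotype and 2.60% of agonist cells. Most of these were 1 cluster of 222 and 178 cells that carried 12 of 13 nonclassical monocyte markers and was left unnamed for its median doublet score of 0.179. Neutrophils were in 3 classes named for Retnlg, Il1a and Ngp, and macrophages in 3 classes: C1qa, Arg1 and alveolar. A class called the Il17a cluster held all detected gamma-delta T cell markers but was led by genes of other lists as well. A level is given in CPM for the isotype library first and the agonist library second, and a class is called higher than another only where both of its values are above both of the other's. This rule compares the values and not their counting intervals, so close orders that rest on few counts are not settled by it. Levels are not compared between genes, since transcript length was not taken into account.

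Of the 32 genes, 4 lie on chromosome 7 (GRCm38), in the order Itgal, Itgam, Itgax and Itgad, all on the + strand. Itgam (128062640 to 128118491), Itgax (128129547 to 128150657) and Itgad (128154376 to 128223816) follow each other with gaps of 11.1 and 3.7 kb, and Itgal (127296260 to 127335138) lies 728 kb before Itgam. Itgam and its neighbour Itgax had different highest classes, as described below, and Itga2b, on chromosome 11, was high in 1 class. The 120 bases before the RefSeq start sites of Itgam, Itgax and Itga2b (GRCm38.p6) are shown for that reason, 5′ to 3′ on the gene's strand. Capitals mark GAGGAA or its reverse complement TTCCTC, the core letters of sites for PU.1, a transcription factor of myeloid cells.
Itgam, chr7:128062520-128062639, + strand: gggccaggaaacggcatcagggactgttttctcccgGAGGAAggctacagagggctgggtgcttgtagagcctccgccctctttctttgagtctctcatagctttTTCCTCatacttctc
Itgax, chr7:128129430-128129549, + strand: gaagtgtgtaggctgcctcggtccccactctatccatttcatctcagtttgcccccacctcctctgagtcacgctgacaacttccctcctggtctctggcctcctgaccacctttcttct
Itga2b, chr11:102469884-102470003, - strand: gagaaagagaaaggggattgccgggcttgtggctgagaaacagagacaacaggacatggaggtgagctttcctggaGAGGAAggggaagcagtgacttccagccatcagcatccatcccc
The letters occurred at 84 and 15 bases before the start of Itgam, at 44 bases before that of Itga2b, and nowhere in the stretch of Itgax. On either strand they are found in the 250 bases before the start in 23.3% of 32851 RefSeq promoters, and in 8 of the 22 promoter entries that matched 20 of the 32 genes. Core letters for Sp1, RUNX and GATA factors were searched in the same way. They occurred in 11, 3 and 2 of the 22 entries, against 32.7%, 14.0% and 10.0% of all promoters. The GATA letters, AGATAA or TTATCT, occurred in none of the stretches shown. A match of 6 letters is a description of the sequence and not a binding site.

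Among the beta-2 integrins, the common chain Itgb2 was broad across myeloid and NK-like cells. It was highest in nonclassical monocyte-like cells at 713 and 647 CPM (95% Poisson intervals 658 to 771 and 605 to 690). Arg1 macrophage-like cells followed at 647 and 587 CPM, and the values overlapped, so the order of these 2 classes is not settled. With the unnamed cluster that carries nonclassical monocyte markers joined to that class, Itgb2 stood there at 594 and 558 CPM and Arg1 macrophage-like cells were the highest. NK-like cells held 556 and 494 CPM, B-like cells 43.3 and 39.9, and migratory DC-like cells 22.2 and 28.0, the lowest of the 24 classes.

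The alpha partners of Itgb2 differed in their highest class but overlapped in others, and NK-like cells held Itgal, Itgam and Itgax. Itgal, the alpha chain of LFA-1, which binds ICAMs, was highest in nonclassical monocyte-like cells at 1797 and 1806 CPM, above all 23 other classes in both libraries, and NK-like cells were next at 941 and 993. With the unnamed cluster joined it was at 1272 and 1467 CPM and remained the highest class. It was also high in Retnlg neutrophil-like cells at 686 and 682 CPM and in the mixed Cd4 and Cd8a T-like class at 654 and 634. The lowest class for Itgal was again migratory DC-like cells, at 15.6 and 30.4 CPM.

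Itgam, the alpha chain of Mac-1, a complement and fibrinogen receptor, was highest in Ngp neutrophil-like cells at 812 and 746 CPM, a class of only 37 and 36 cells. Retnlg neutrophil-like cells at 505 and 472, basophil-like cells at 529 and 424, and Il1a neutrophil-like cells at 466 and 467 CPM came next and overlapped each other in part. NK-like cells held 334 and 276 CPM, whereas CD4, CD8 and dividing T-like cells held 3.31 to 5.81. Of the 31-base words of the longest Itgam transcript 73.9% also occur in other genes, most often in Gm49368, an overlapping gene model, so that counts could be split between them. That model had 77 and 79 counts over all cells against 7164 and 6903 for Itgam.

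Itgax, the alpha chain of CD11c/CD18, had a different order from its neighbour Itgam. It was high in Arg1 macrophage-like cells at 327 and 345 CPM, which lay above C1qa macrophage-like cells at 265 and 282 and cDC2-like cells at 252 and 292. Alveolar macrophage-like cells, at 399 and 236 CPM, overlapped all 3. NK-like cells at 201 and 187 CPM were above nonclassical monocyte-like cells at 170 and 172, and dividing NK-like cells at 200 and 145 overlapped both. Retnlg neutrophil-like cells, among the highest for Itgam, held 29.6 and 30.6 CPM, and classical monocyte-like cells held 6.15 and 8.26.

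Itgad, a less studied beta-2 partner, was sparse. It reached 15.2 and 19.9 CPM in dividing NK-like cells, from 13 and 15 counts, and 6.73 and 9.71 CPM in NK-like cells. Itgad and Itgax share sequence: 19.2% of the 31-base words of Itgad and 12.7% of those of Itgax are found in other genes, most often in each other, so that counts could be split between them. The class with the most Itgad was not one with the most Itgax.

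**Figure D1:**
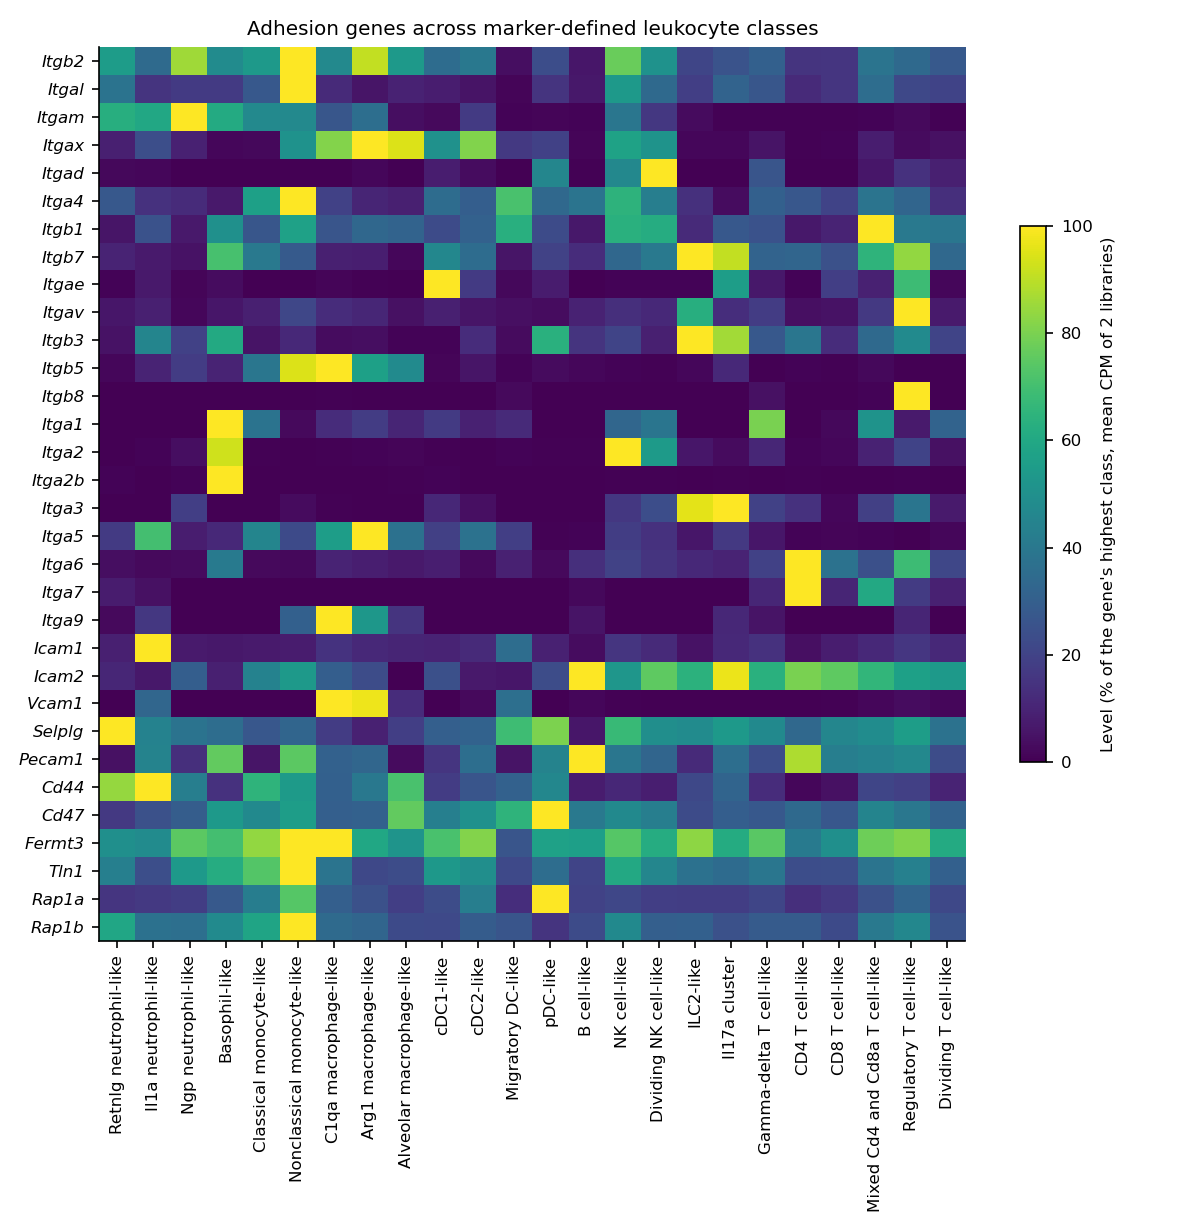
Level of each of the 32 genes (rows) in each of 24 leukocyte classes (columns), as the mean CPM of both libraries in percent of that gene's highest class. Itga2b and Itgb8 fill a single column each, while Fermt3, Cd47 and Rap1b are spread over all classes.

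The beta chains Itgb1 and Itgb7, which both pair with Itga4, had different highest classes, though both were high in the mixed Cd4 and Cd8a T-like class. Itga4, whose dimers bind VCAM-1, fibronectin and MAdCAM-1, was highest in nonclassical monocyte-like cells at 1142 and 990 CPM, then in migratory DC-like cells at 772 and 749, NK-like cells at 721 and 660 and classical monocyte-like cells at 603 and 606. These 4 classes did not overlap. The lowest levels were in basophil-like cells at 67.6 and 76.6 CPM and in the Il17a cluster at 38.5 and 32.5.

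Itgb1, the common chain of the VLA integrins, was highest in the mixed Cd4 and Cd8a T-like class at 792 and 677 CPM, above all other classes. NK-like (475 and 459), migratory DC-like (480 and 447) and dividing NK-like cells (487 and 420) overlapped below it. CD4 T-like cells, at 46.5 and 47.3 CPM, and CD8 T-like cells, at 82.5 and 62.4, were far lower, as were Retnlg neutrophil-like cells at 43.6 and 40.1.

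Itgb7 was highest in innate-like and tissue lymphocyte classes. ILC2-like cells held 791 and 582 CPM, the Il17a cluster 581 and 667 and regulatory T-like cells 604 and 548, and these 3 overlapped. Basophil-like cells followed at 482 and 493 CPM, and then the mixed Cd4 and Cd8a T-like class, the highest for Itgb1, at 430 and 462. Of these classes, the Il17a cluster was the lowest of all 24 for Itga4.

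Itgae, the alpha-E chain that pairs with Itgb7 to bind E-cadherin, was narrower. It was highest in cDC1-like cells at 320 and 112 CPM, from 39 and 52 cells, in regulatory T-like cells at 168 and 129 and in the Il17a cluster at 129 and 112. The libraries of the cDC1-like class stood apart, with intervals of 259 to 391 and 79.9 to 152 CPM that do not meet, and this class overlapped the other 2. CD8 T-like cells held 33.6 and 46.0 CPM and NK-like cells 0.29 and 3.53.

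The alpha-v chain and its beta partners bind matrix proteins and, for some dimers, latent TGF-beta. Itgav was highest in regulatory T-like cells at 473 and 338 CPM and next in ILC2-like cells at 310 and 200, each above all classes below it. Every other class was under 100 CPM in both libraries. Itgb8, whose dimer with alpha-v binds latent TGF-beta, was found nearly only there: of its 53 counts, 18 and 22 were in regulatory T-like cells, at 38.7 and 61.5 CPM, and the next class, gamma-delta T-like cells, held 4.33 and 0 CPM.

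Itgb3, the other well-known alpha-v partner, was highest in ILC2-like cells at 167 and 118 CPM and the Il17a cluster at 102 and 144, which overlapped, before pDC-like cells at 91.7 and 89.7 and basophil-like cells at 94.1 and 79.0. Itgb5 had a different distribution, with its highest levels in macrophage and monocyte classes, and was low in Retnlg neutrophil-like cells at 1.12 and 2.78 CPM. It stood at 106 and 112 CPM in C1qa macrophage-like cells and at 90.9 and 116 in nonclassical monocyte-like cells, which overlapped, followed by Arg1 macrophage-like cells at 61.5 and 62.2. In regulatory, gamma-delta and dividing T-like cells no Itgb5 count was found, with 3 counts as the limit that a count of 0 allows.

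**Figure D2:**
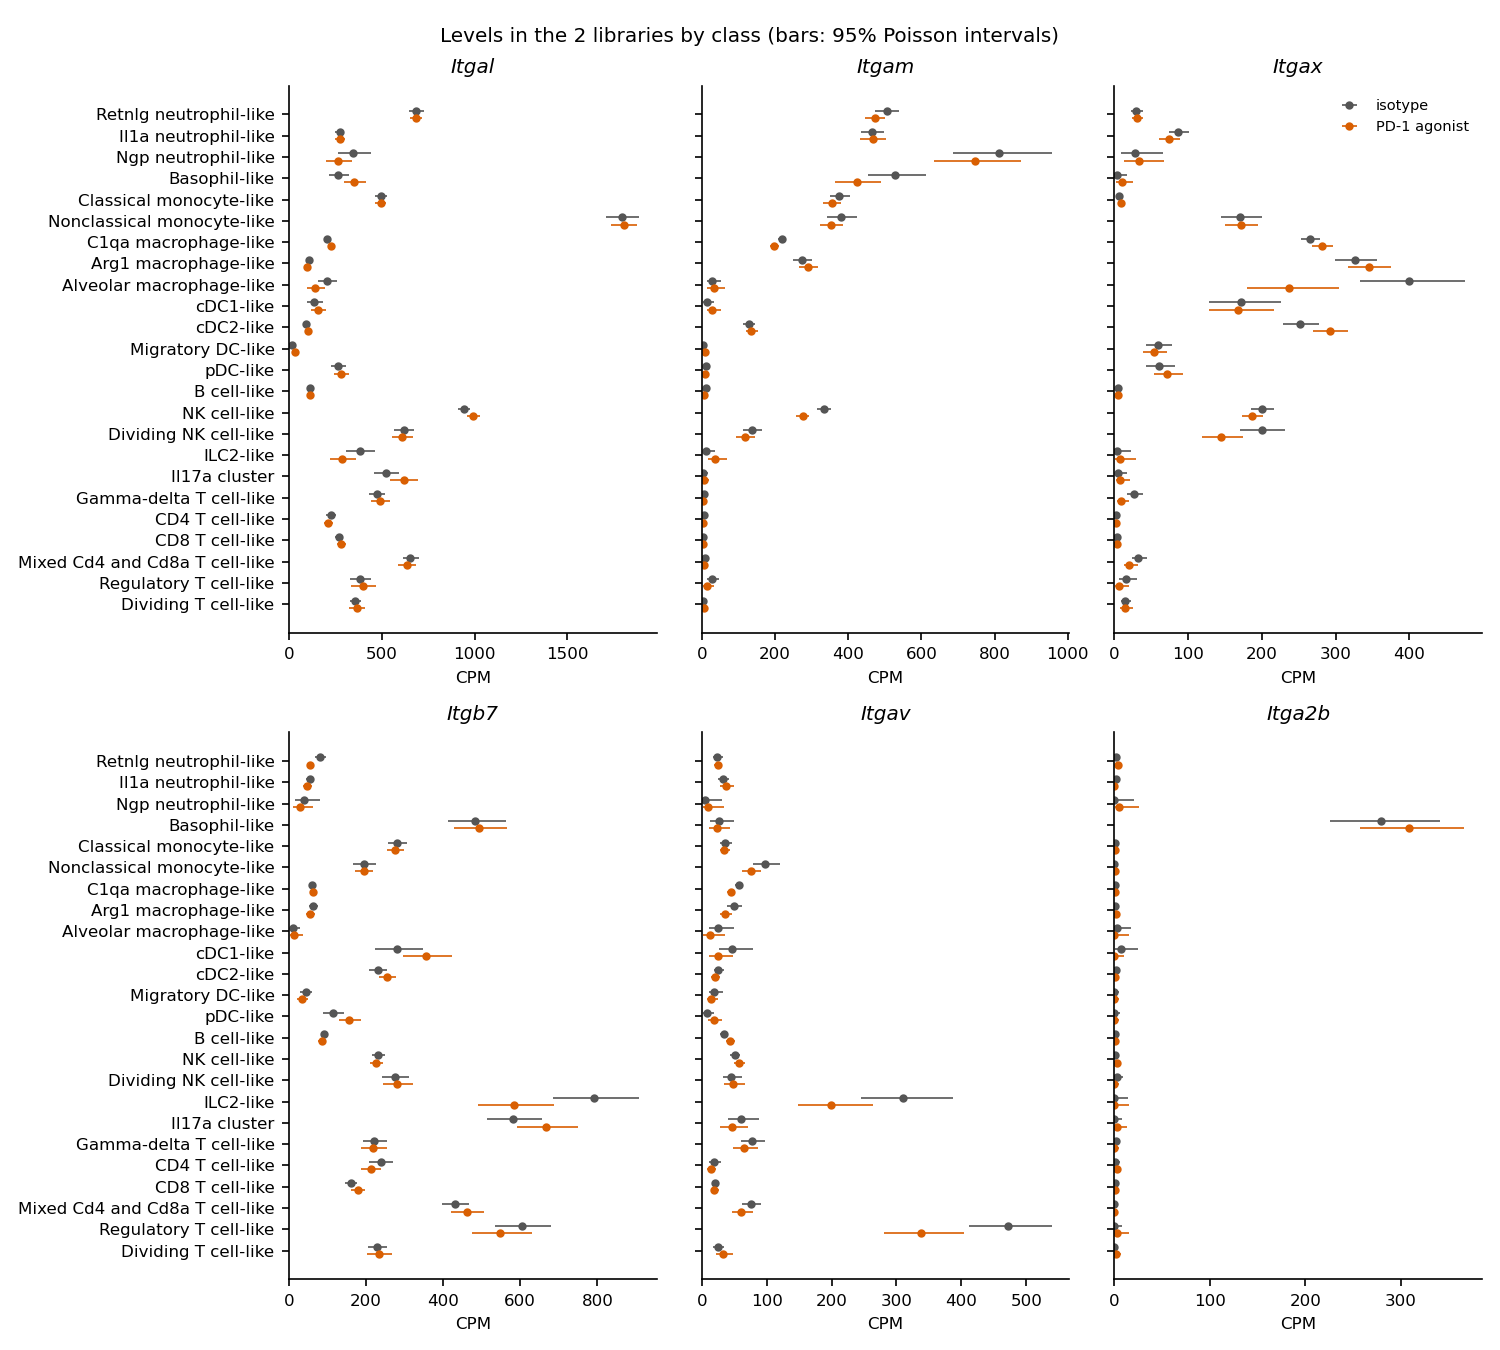
Levels of 6 integrin chains in CPM (horizontal axes) by class, with the isotype library in grey, the PD-1 agonist library in orange, and bars for exact 95% Poisson intervals. Itgal peaks in nonclassical monocyte-like cells (1797 and 1806 CPM), Itgam in neutrophil-like, Itgax in macrophage-like and Itgav in regulatory T-like cells, and Itga2b in basophil-like cells alone.

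Of the collagen-binding alpha chains, Itga2 was high in NK-like and basophil-like cells, and Itga1 was highest in basophil-like cells. Itga2, which encodes CD49b, a surface marker used to sort both cell types, was highest in NK-like cells at 269 and 266 CPM and next in basophil-like cells at 235 and 261, and the pairs did not overlap. Dividing NK-like cells held 153 and 138 CPM, and regulatory T-like cells 60.2 and 47.5. Itga1, the alpha chain of VLA-1, which binds collagen IV, was highest in basophil-like cells at 70.6 and 88.5 CPM, from 24 and 37 counts, then in gamma-delta T-like cells at 60.6 and 66.3 and in the mixed Cd4 and Cd8a T-like class at 48.4 and 33.4. NK-like cells held 26.1 and 26.2 CPM of Itga1, and it was not counted in CD4 T-like, Retnlg neutrophil-like or pDC-like cells.

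Itga2b, the platelet fibrinogen receptor chain CD41, had the widest gap between its highest and next class among the 27 genes. Basophil-like cells held it at 279 and 309 CPM (intervals 226 to 341 and 258 to 367), 87.4-fold the next class by the mean of both libraries, and they held 95 of the 120 isotype and 129 of the 165 agonist counts. The next class, cDC1-like cells, held 6.73 and 0 CPM. Of 10 platelet markers listed, 4 were measured, and in basophil-like cells they summed to 5.88 and 4.79 CPM, with Gp1bb and Clec1b at 0 in both libraries. The sum of these platelet markers was higher in some other classes, at 51.4 and 58.8 CPM in Retnlg neutrophil-like cells, where Itga2b stood at 1.12 and 3.58 CPM. Of that sum, Pf4 made up 0.56 and 1.59 CPM. The part of platelet RNA in the level of Itga2b was not tested.

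The remaining alpha chains are Itga5, Itga6, Itga9, Itga7 and Itga3. Itga5, the fibronectin receptor chain, was a myeloid gene, at 107 and 84.2 CPM in Arg1 macrophage-like cells, 73.6 and 60.6 in Il1a neutrophil-like cells and 57.9 and 48.9 in C1qa macrophage-like cells, with no overlap between these 3. Itga6, a laminin receptor chain, was highest in CD4 T-like cells at 225 and 227 CPM and regulatory T-like cells at 189 and 120. Basophil-like cells, a myeloid class, were next at 88.2 and 98.1 CPM, above CD8 T-like cells at 85.5 and 84.2. Nonclassical monocyte-like cells held 2.27 and 7.09 CPM of Itga6.

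Itga9, a chain that binds tenascin and VCAM-1, was at 10.2 and 10.6 CPM in C1qa macrophage-like cells, which held 63 and 59 of its counts. Itga7, a laminin receptor chain known from muscle, was at 5.81 and 6.64 CPM in CD4 T-like cells from 6 and 8 counts. Itga3 was at 6.79 and 18.6 CPM in the Il17a cluster and at 3.97 and 20.4 in ILC2-like cells, from so few counts (3 and 8 in the first) that no order can be read.

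Among the ligands, Icam1, which is bound by LFA-1 and Mac-1 and is known as an NF-kB target, was highest in Il1a neutrophil-like cells at 748 and 711 CPM, 2.79-fold the next class. Migratory DC-like cells followed at 283 and 240 CPM, above all classes below. Retnlg neutrophil-like cells, the more abundant neutrophil class, held 63.7 and 67.2 CPM. Icam2, a constitutive LFA-1 ligand, was low and lymphoid, at 49.7 and 37.8 CPM in B-like cells and 43.0 and 41.8 in the Il17a cluster, which overlapped. It was not counted in alveolar macrophage-like cells.

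Vcam1, the ligand of Itga4 dimers, was found in macrophages, from 191 and 174 counts in C1qa macrophage-like cells (intervals 26.8 to 35.7 and 26.8 to 36.3 CPM), at 26.5 and 34.2 CPM in Arg1 macrophage-like cells, and lower in every other class. Endothelial cells also express Vcam1. In C1qa macrophage-like cells the 10 endothelial markers listed summed to 9.58 and 9.88 CPM, with Emcn at 0 in both libraries, and the part of endothelial RNA in the level of Vcam1 was not tested.

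Selplg, which encodes the selectin ligand PSGL-1, was highest in Retnlg neutrophil-like cells at 1176 and 1243 CPM, then in pDC-like cells at 1012 and 928, migratory DC-like cells at 821 and 844 and NK-like cells at 817 and 810, with no overlap between these 4. B-like cells held 70.1 and 75.9 CPM, the lowest of all classes. Pecam1, a homophilic adhesion molecule of vessels and leukocytes, had its highest levels in B-like cells at 184 and 183 CPM and CD4 T-like cells at 165 and 156, and stood at 5.59 and 10.7 in Retnlg neutrophil-like cells.

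Cd44, a hyaluronan receptor that rises on lymphocyte activation, was highest in myeloid classes: 1777 and 1748 CPM in Il1a neutrophil-like, 1579 and 1391 in Retnlg neutrophil-like and 1229 and 1287 in alveolar macrophage-like cells, with no overlap. Basophil-like cells, also myeloid, held 268 and 232 CPM. Among lymphocytes Cd44 was highest in the Il17a cluster at 532 and 609 CPM. It stood at 365 and 372 CPM in the mixed Cd4 and Cd8a T-like class, 82.0 and 77.4 in CD8 T-like cells and 35.8 and 25.7 in CD4 T-like cells, the lowest class. The mixed class was thus the highest for Itgb1 and was also above CD4 and CD8 T-like cells in Cd44. The genes that led the mixed class included Icos, Cxcr6, Ifng and Ctla4, and those of CD4 T-like cells Lef1, Tcf7, S1pr1 and Il7r. Tcf7 was also among the leading genes of the CD8 T-like clusters. Whether the levels of Itgb1 and Cd44 follow the activation state of these classes was not tested. Cd47, the SIRP-alpha ligand that signals against phagocytosis, was above 200 CPM in every class, from 246 and 217 in Retnlg neutrophil-like cells to 1485 and 1332 in pDC-like cells.

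The activation genes were expressed in every class and were high in monocytes. Nonclassical monocyte-like cells were the highest class for Tln1 (721 and 683 CPM) and Rap1b (1649 and 1553 CPM), above all others in both libraries, and led for Fermt3 at 244 and 251 CPM, where C1qa macrophage-like cells at 242 and 253 were indistinguishable. Classical monocyte-like cells were next for Tln1 at 525 and 505 CPM. The lowest class of Fermt3 was migratory DC-like cells at 63.9 and 67.0 CPM, which were also the lowest class for Itgb2 and Itgal.

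Rap1a and Rap1b, which encode near-identical GTPases, had opposite ranks in pDC-like cells. Rap1a was highest there, at 748 and 811 CPM, and nonclassical monocyte-like cells were next at 585 and 564. For Rap1b, pDC-like cells were the lowest of the 24 classes, at 247 and 232 CPM. Of the 31-base words of Rap1a, 14.6% occur in other genes, mostly in Gm9392, while none of those of Rap1b do.

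Nonclassical monocyte-like cells were thus the highest class of 6 of the 27 genes with at least 200 counts (Itga4, Itgal, Itgb2, Fermt3, Tln1 and Rap1b), and of 4 with the unnamed cluster joined, where Itgb2 was highest in Arg1 and Fermt3 in C1qa macrophage-like cells. For comparison, they were the highest class of 13 of 79 other integrin pathway genes on lists of activation factors, signalling proteins, selectins, junctional molecules and matrix ligands, and of 3.46% of all 12111 genes. The highest class lay above every other class in both libraries for 18 of the 27 genes (66.7%), against 67.1% of the 79 pathway genes and 41.7% of all genes. It was also at least 2-fold the next class for 2 of the 27 (7.4%), Itga2b and Icam1, against 11.4% of the pathway genes and 9.3% of all genes. The 27 genes were not matched to the others by their number of counts.

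The alpha and beta chains of a dimer were compared over the 24 classes, using mean levels. The points share 2 libraries and differ in cell number and depth, so the values are descriptive. Spearman's rho with Itgb2 was 0.79 for Itgam, 0.62 for Itgax, 0.37 for Itgal and 0.05 for Itgad. Itgb1 had a rho of 0.68 with Itga1, 0.41 with Itga2, 0.30 with Itga4, 0.20 with Itga5, 0.15 with Itga6 and 0.14 with Itga3, and of -0.0049 with Itga9 and -0.21 with Itga7. Itgb7 had 0.38 with Itgae and 0.07 with Itga4. Itgav had 0.36 with Itgb8, 0.21 with Itgb3 and -0.07 with Itgb5. For Itga2b and Itgb3, the chains of the platelet receptor, the sign differed between the libraries, at -0.32 in the isotype and 0.27 in the agonist library.

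Between the treatments, the levels of these genes over all CD45+ cells were close. A ratio was called past the fold limit when the agonist library was at least 25% higher or at least 20% lower than the isotype library (a log2 ratio of 0.32 in either direction). Of the 27 genes 1 passed it, Itga2b, against 12.0% of all 12111 genes. The 27 genes were not matched to all genes by their number of counts, and counting error is wider for genes with few counts. The log2 ratio of agonist over isotype ran from -0.27 to 0.50 among the 27, with a median of -0.0032, against -0.0076 over all genes. For 20 of the 27 the libraries differed by under 1.1-fold. Sums over all cells depend on how many cells of each class were recovered, so that fewer cells of a type and less RNA per cell cannot be told apart in them.

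Itga2b stood at 3.25 CPM in the isotype and 4.59 CPM in the agonist library, a log2 ratio of 0.50 (95% interval 0.15 to 0.85). Basophil-like cells made up 1.14% of isotype and 1.30% of agonist cells. With the same class weights in both libraries the log2 ratio was 0.21, which is no longer past the limit, and within basophil-like cells it was 0.14. The call was also lost when the first agonist table was left out (log2 0.30) and when doublets were kept.

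The interval left out no change for 11 of the 27 genes, against 36.2% of all 12111 genes. Of these 4 were higher, Itga2b among them, and 7 lower, and apart from Itga2b these differences stayed within the fold limit. Itga5 was at 30.1 and 24.9 CPM (log2 ratio -0.27, interval -0.40 to -0.15), Icam1 at 124 and 107 CPM (-0.21, -0.27 to -0.15), Itgav at 50.8 and 44.2 CPM (-0.20, -0.30 to -0.10) and Itgb1 at 246 and 220 CPM (-0.16, -0.20 to -0.11). Itgal was higher in the agonist library, at 410 and 443 CPM (0.11, 0.08 to 0.14). With equal class weights the ratios of Itga5 and Itgb1 were -0.28 and -0.12, while that of Icam1 went from -0.21 to -0.13 and that of Itgal from 0.11 to 0.02. Neither side of these comparisons has a replicate, and how far 2 isotype libraries would differ is not known.

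**Figure D3:**
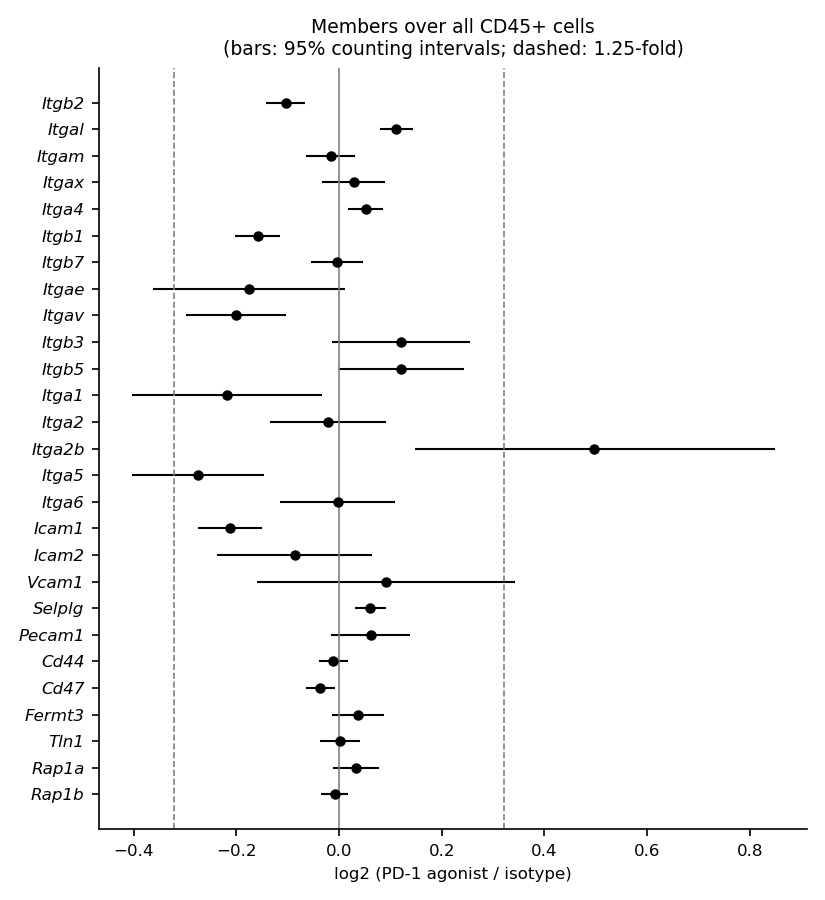
The log2 ratio of PD-1 agonist over isotype (horizontal axis) for the 27 genes with at least 200 counts, over all CD45+ cells, with exact 95% counting intervals. Dashed lines mark the fold limit, and the point of Itga2b at 0.50 is the single one past it.

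Within classes, ratios were computed in the 20 classes with at least 100 cells in each library, for genes with at least 200 counts in the class. This gave 272 pairs of gene and class, of which 17 (6.25%) were past the fold limit, against 17.4% of 50716 such pairs over all genes. The pairs were not matched by their number of counts either, so the lower share is not read as steadier expression of the adhesion genes. Of the 17, 7 were higher and 10 lower in the agonist library, against 8.84% and 8.56% of all pairs. For 14 of the 272 pairs the ratio was past the limit and the counting interval left out no change, against 15.6% of the pairs over all genes, and none reached 1.5-fold except Itgb2 in basophil-like cells. Without the first agonist table the counts were 4 higher and 16 lower. Of the 17 pairs, 5 remained past the limit under each of 13 or 14 alternatives of scaling, cells, clusters and tables: Icam1 in C1qa macrophage-like, Itgb2 in basophil-like, Itgb7 in Retnlg neutrophil-like, Icam2 in B-like and Itgb1 in CD8 T-like cells. The other 12 fell inside it under at least 1 of them. In 8 of the 20 classes none of the adhesion genes was past the limit. The share of all genes past it there was 12.4% in NK-like, 18.4% in CD4 T-like, 18.7% in pDC-like, 20.1% in mixed Cd4 and Cd8a T-like, 21.1% in gamma-delta T-like, 22.1% in dividing T-like and 23.1% in migratory DC-like cells, and 28.4% in the Il17a cluster.

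C1qa macrophage-like cells had 3 of 21 genes past the limit, against 15.8% of all genes there. Icam1 was counted 761 and 501 times, lower in the agonist library with a log2 ratio of -0.46 (interval -0.62 to -0.29). Itgav was at 57.8 and 44.9 CPM (-0.36, -0.60 to -0.13). Itga6 was at 19.6 and 25.5 CPM and higher (0.38, 0.02 to 0.74). The call of Itgav was lost without the second isotype table (-0.29), without the second agonist table (-0.28) and without the filter on genes per cell (-0.19), and that of Itga6 without the third agonist table (0.21). For Icam1 the direction was the opposite in cDC2-like cells, at 77.4 and 99.0 CPM (0.35, 0.03 to 0.68), where it was 1 of 16 genes past the limit against 18.2% of all genes. There the ratio was 0.22 without the first and 0.27 without the second agonist table, 0.3160 with doublets kept and 0.3195 without the top cell of each library, all inside the limit. Whether the classes differ was not tested.

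Basophil-like cells had 2 of 10 genes past the limit, Itgb2 and Itgal, against 30.4% of all genes in this small class. Itgb2 was at 262 and 392 CPM (0.59, 0.20 to 0.97) and Itgal at 265 and 352 CPM (0.41, 0.02 to 0.81). Itgam, another partner of Itgb2, was lower in the agonist library, at 529 and 424 CPM, and just inside the limit. As single tables were left out, the ratio of Itgb2 went down to 0.33, without the second isotype table. That of Itgal ran from 0.25, without the third agonist table, to 0.88, without the second isotype table, and its call was lost without the first (0.29) or the third agonist table. In classical monocyte-like cells Itgb2 went the other way, at 410 and 323 CPM (-0.35, -0.49 to -0.20), the 1 of 14 genes past the limit against 15.1% of all genes. This call was lost under 10 of 14 alternatives, both other scalings included (-0.30 and -0.31), with ratios down to -0.26.

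In lymphoid classes few genes were past the limit. Itgav in regulatory T-like cells, its highest class, was at 473 and 338 CPM (-0.48, -0.81 to -0.16), and it was 1 of 11 genes past the limit against 25.8% of all genes. Without the filter on genes per cell the ratio was -0.19 (-0.50 to 0.11), inside the limit. Itgb1 in CD8 T-like cells was at 82.5 and 62.4 CPM (-0.40, -0.74 to -0.07), 1 of 15 against 15.9%. Itgax in dividing NK-like cells was at 200 and 145 CPM (-0.46, -0.82 to -0.11), 1 of 15 against 19.9%, and at -0.30 without the first isotype table its call was lost. In B-like cells, 2 of 16 genes were past the limit against 12.8%, among them Icam2 at 49.7 and 37.8 CPM (-0.39, -0.72 to -0.07). The other was Itgav, whose log2 ratio was 0.33 with an interval from -0.01 to 0.68, and 0.19 without the second isotype table.

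In neutrophils, Itgb7 in Retnlg neutrophil-like cells was at 81.1 and 55.2 CPM (-0.55, -0.90 to -0.21), the lowest ratio of all 272 pairs and 1 of 13 genes there, against 19.2%. In Il1a neutrophil-like cells 2 of 17 genes were past the limit against 16.9%. Tln1 was at 190 and 147 CPM (-0.37, -0.62 to -0.12), and its call was lost with doublets kept (-0.23), without the filter on genes per cell (-0.20) and without the first agonist table (-0.29). Itgb3 had a log2 ratio of 0.36 with an interval from -0.04 to 0.77, and the ratio turned to -0.68 (-1.81 to 0.36) at a finer clustering. Icam1, which is highest in this class, was at 748 and 711 CPM and Cd44 at 1777 and 1748 CPM, both within the limit. Itga5 in Arg1 macrophage-like cells, its highest class, was at 107 and 84.2 CPM (-0.35, -0.68 to -0.02), 1 of 16 against 18.6%. Its call was lost without the second agonist table (-0.22), the third agonist table (-0.30) or the first isotype table (-0.28). In the same class the 15 neutrophil markers listed, 2 of them at 0 in each library, summed to 795 and 2690 CPM, and their part in this ratio was not tested. Itgb5 in nonclassical monocyte-like cells had a ratio of 0.35 with an interval from -0.05 to 0.75, 1 of 16 against 20.5%, and was inside the limit without the first agonist table (0.31).

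**Figure D4:**
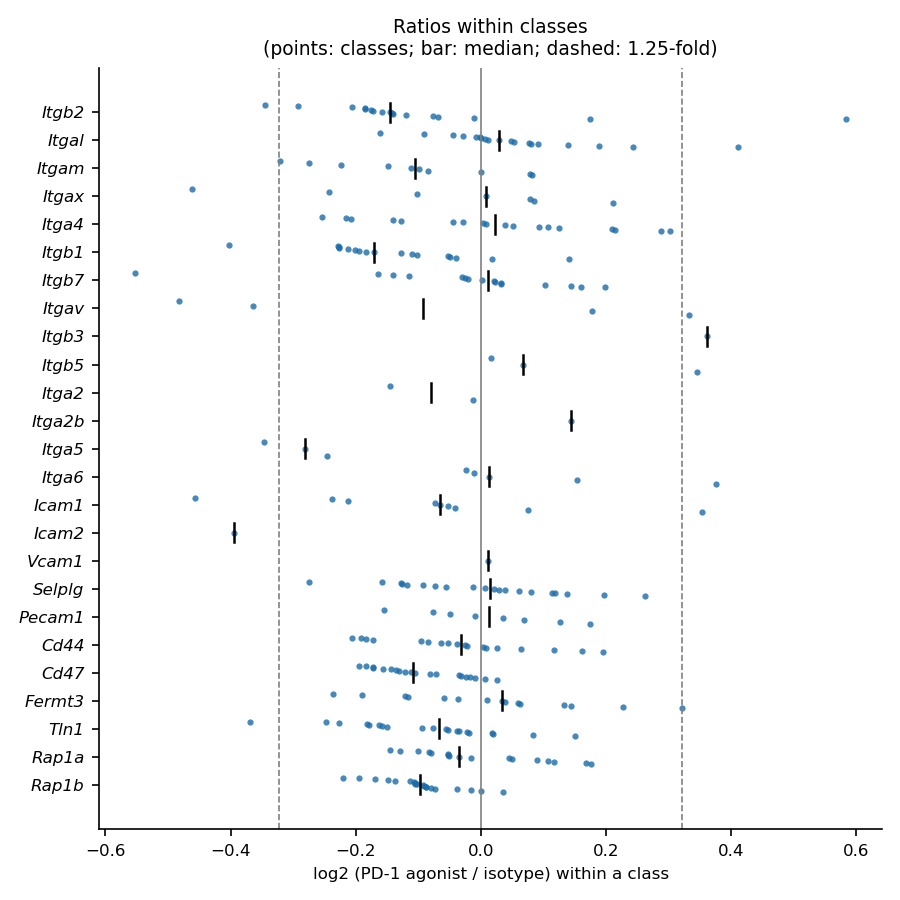
The log2 ratio of PD-1 agonist over isotype within classes (horizontal axis) for each gene with at least 1 class that could be compared; points are classes, black bars medians and dashed lines the fold limit. Points of Itgb1, Itgb2, Cd47 and Rap1b lie mostly left of 0, with medians between -0.17 and -0.10.

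Small differences of 1 sign recurred over classes for several genes. Itgb1 and Itgb2 were each lower in the agonist library in 15 of 17 classes compared, with median log2 ratios of -0.17 and -0.14. Cd47 and Rap1b were each lower in 18 of 20 classes, with medians of -0.11 and -0.10, and Tln1 in 16 of 20, with a median of -0.07. Of the 12 genes compared in at least 15 classes these 5 were lower in at least 80% of them and none was higher in as many. Among all 1005 genes compared in at least 15 classes, 21.7% were lower and 15.1% higher in that way. The classes come from the same 2 libraries and are not separate observations, and the 80% limit was set after the values had been seen. With plain library totals Cd47 was lower in 16 and Tln1 in 15 of 20 classes, and with median-of-ratios factors Cd47 in 15, so that 1 of the 5 genes fell under the limit in each case.

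The other genes of the pathway were also close between the libraries. Of 79 genes with at least 200 counts, none of 11 talin and kindlin partners, 13 Rap1 exchange and GTPase-activating factors, 9 selectin genes and 7 matrix ligands was past the limit. Among 19 genes of outside-in signalling 1 was, Ptk2, which encodes focal adhesion kinase, at 4.12 and 5.20 CPM (log2 ratio 0.34, interval 0.02 to 0.65). Among 20 junctional and other adhesion molecules 1 was, Sirpb1a, at 24.8 and 35.0 CPM (0.50, 0.38 to 0.63). In Sirpb1a 47.7% of the 31-base words occur in other genes, mostly in Sirpb1c, so its counts could be split among copies. The medians of these lists lay between -0.04 and 0.05.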

How the data were processed

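Live CD45+ lung cells were measured by droplet single-cell RNA sequencing, 3 tables for each of 2 treatments. The deposited tables hold estimated counts per gene column and cell, made by the authors and not normalized as far as the values show. Per the file headers each cell also has a total count, a gene count and the percent of its reads that are mitochondrial or ribosomal. The submitters' processing notes name Partek and mm10. Neither the aligner and counter nor the strand setting is given in the sources used here.

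Blank lines were skipped and joined lines split. Cells were kept once per treatment, from the row with the highest total, where the authors' own column placed them inside a filter (observed range 500 to 4000 genes). Of 12448 isotype and 13728 agonist barcodes, 11106 and 12216 were inside it, and 37 barcodes occurred in both libraries. Scrublet (scanpy 1.11.5, expected rate 0.1, threshold 0.25) removed 807 (7.27%) and 944 (7.73%) doublets. Clustering used 2000 variable genes less the 32 members, 30 principal components, 15 neighbours and Leiden resolution 1 (leidenalg 0.10.2), with lymphoid and dendritic clusters clustered again. The limits of the naming rule were set after the clusters had been seen.

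Estimated counts were summed per class and library, rounded and scaled by TMM factors (edgeR 4.0.16, R 4.3.3; no other edgeR step was run). Levels have exact Poisson and ratios exact Clopper-Pearson intervals. With 1 library per treatment no p-value was computed, which replaced the planned option of 3 against 3. PCR duplicates and counts concentrated in single cells are not covered by the intervals. On simulated sums for all cells (12111 genes), 95.3% of intervals of unchanged genes held the true ratio, 1.0% of unchanged genes passed the fold limit, and 100% of genes changed 1.5-fold did. For NK-like cells (5130 genes) 2.8% of unchanged and 95.0% of 1.5-fold genes passed it, and for basophil-like cells (566 genes) 3.0% and 93.0%. The simulated sums varied by counting error only. These shares therefore check the calculation and do not give the rate of false calls between the real libraries.

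Genes named per class had 200 counts, a ratio past the fold limit and an interval that left out no change; genes that met only the first conditions were added so that each count is complete. The members, the lists and the rules were chosen with earlier results of these data known. Gene positions and 31-base words come from GENCODE gene models on GRCm38 (mm10), and promoters from RefSeq. Of the 10 platelet markers listed, 6 were not analysed here.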

Additional observations from a re-analysis of the deposited data

How the results depend on the processing

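The counts of genes past the fold limit depended on the count filter and on the limit itself. Over all cells 1 gene was higher and 0 lower. The count of higher genes was 0 with doublets kept, with equal class weights and at 1.5-fold, 2 with at least 50 counts and 3 with no count filter, and 0 to 1 as each table was left out in turn, while the count of lower genes was 0 in each of these. Within classes 7 pairs were higher and 10 lower. There were 16 lower at Leiden resolution 2, 12 higher without the filter on genes per cell (chosen after seeing the data), 20 higher and 36 lower with at least 50 counts, 75 and 83 with no count filter, and 1 and 0 at 1.5-fold. Leaving out each table in turn gave 4 to 9 higher and 8 to 16 lower, with both extremes of 4 higher and 16 lower from leaving out the first agonist table. Of the 17 ratios past the limit within classes, 12 fell inside it under at least 1 alternative, with values beside each in the results, and 1 changed sign: Itgb3 in Il1a neutrophil-like cells, at -0.68 with Leiden resolution 2. The ratio of Itgal in basophil-like cells moved to 0.88 without the second isotype table. Levels in the highest class moved beyond their intervals for Itgal (1895 CPM with the members among the clustering genes, 1682 CPM with doublets kept), Itgav (249 CPM in regulatory T-like cells without the filter on genes per cell) and Cd44 (1893 CPM at Leiden resolution 2), and the cause was not tested. Joining the unnamed clusters to the class of their markers, chosen after seeing the data, moved 5 levels in nonclassical monocyte-like cells: Itga4 to 875, Itgal to 1369, Itgb2 to 576, Tln1 to 615 and Rap1b to 1353 CPM. No paired analysis was possible because the tables of a treatment share cells and no test was run. Depth limits the 5 genes with 34 to 166 counts and the classes of under 100 cells per library (alveolar macrophage-like, Ngp neutrophil-like, ILC2-like and cDC1-like), whose levels have wide intervals.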
